A study of Mus musculus with 6 samples.

Results

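The respiratory chain genes are the nuclear genes for complexes I to IV and ATP synthase, with their assembly factors. They were taken by symbol: every nuclear protein-coding gene of the GRCm38.p6 RefSeq table whose symbol begins with Nduf, Uqcr, Sdha to Sdhd, Cox and a digit, or Atp5. The rule found 109 of 21883 genes, and it takes in the assembly factors Ndufaf1 to Ndufaf8 and Sdhaf1 to Sdhaf4. Chromatin accessibility at these genes was measured in organoids of the mouse small intestine. The assay was bulk ATAC-seq, a method that tags accessible DNA with sequencing adapters through Tn5 transposase. All 6 libraries came from 1 organoid line, line26, labelled wild type with the allele Lgr5GFPDTR/+ and derived from a single female mouse. The 3 RANKL libraries were made after 6 days with 100 ng/mL RANKL, the TNF family cytokine that drives microfold (M) cell differentiation. These cultures had first received 3 µM CHIR99021, a GSK3 inhibitor, and 1.5 mM valproic acid, a histone deacetylase inhibitor, for 3 days, then plain ENR medium (EGF, Noggin, R-spondin 1) for 1 day. The 3 control libraries, named CVENRD6 with a replicate number, came from organoids in ENR medium at day 6. The letters CV may stand for CHIR99021 and valproic acid, but the sources used here do not explain them. Whether the controls had the same pretreatment is not stated, so from these sources pretreatment and RANKL cannot be told apart. Replicates were independent differentiation experiments of the same line, and no p-value below covers differences between mice.

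The respiratory chain passes electrons from NADH (complex I) and succinate (complex II) through complex III to oxygen at complex IV, and pumps protons across the inner mitochondrial membrane. ATP synthase uses the resulting gradient to make ATP. A few core subunits are encoded by mitochondrial DNA, which is not part of this list, and the rest by nuclear genes. Nuclear respiratory factor 1 (NRF1), the Ets factor GABP (also called NRF2), YY1 and the estrogen-related receptors (ERR) are well-known activators of these genes. In the intestine, crypt cells and differentiated enterocytes are known to differ in how much they rely on mitochondrial respiration.

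Most windows of these genes sat on promoters, so the promoter sequences are shown first, for the genes on which the results below turn. They are the 3 genes of the ATP synthase c subunit (Atp5g1, Atp5g2, Atp5g3), a complex IV gene whose counts were lower with RANKL (Cox7c), a complex IV gene with several matches (Cox6a1), and Sdha, whose start is shared with a neighbour. Each line gives the 250 bases before the start listed by RefSeq (GRCm38.p6), all on the minus strand and written 5′ to 3′ toward the start. The places are chr11:96075632-96075881 for Atp5g1, chr15:102671048-102671297 for Atp5g2, chr2:73911327-73911576 for Atp5g3, chr13:86046796-86047045 for Cox7c, chr5:115348959-115349208 for Cox6a1 and chr13:74350241-74350490 for Sdha. Capitals mark matches, on either strand, to GCGCATGCG (NRF1 match), CCGGAAG (Ets), AAGATGGCG (YY1), TCAAGGTCA (ERR), GGGCGG (Sp/KLF) and GGANTTTCC (NF-kB). They also mark CCAAT boxes, whose letters are their name.
Atp5g1: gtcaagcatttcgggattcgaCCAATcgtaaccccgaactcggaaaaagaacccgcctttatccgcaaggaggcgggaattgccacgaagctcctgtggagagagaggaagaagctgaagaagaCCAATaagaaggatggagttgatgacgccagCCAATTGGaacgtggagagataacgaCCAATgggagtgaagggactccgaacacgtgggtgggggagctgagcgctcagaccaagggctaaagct
Atp5g2: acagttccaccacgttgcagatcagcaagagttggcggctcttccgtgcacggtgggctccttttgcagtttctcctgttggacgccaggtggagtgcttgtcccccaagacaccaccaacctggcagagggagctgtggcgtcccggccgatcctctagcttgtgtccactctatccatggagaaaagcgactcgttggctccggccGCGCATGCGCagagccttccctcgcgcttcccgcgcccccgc
Atp5g3: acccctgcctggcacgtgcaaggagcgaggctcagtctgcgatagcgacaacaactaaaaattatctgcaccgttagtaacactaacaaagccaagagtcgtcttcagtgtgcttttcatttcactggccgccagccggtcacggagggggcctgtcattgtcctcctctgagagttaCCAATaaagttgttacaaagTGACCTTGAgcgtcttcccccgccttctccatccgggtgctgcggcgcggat
Cox7c: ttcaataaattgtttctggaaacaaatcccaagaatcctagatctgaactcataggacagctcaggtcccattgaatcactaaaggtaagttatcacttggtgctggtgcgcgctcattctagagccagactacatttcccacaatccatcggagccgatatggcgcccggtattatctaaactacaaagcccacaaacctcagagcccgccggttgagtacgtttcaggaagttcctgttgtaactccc
Cox6a1: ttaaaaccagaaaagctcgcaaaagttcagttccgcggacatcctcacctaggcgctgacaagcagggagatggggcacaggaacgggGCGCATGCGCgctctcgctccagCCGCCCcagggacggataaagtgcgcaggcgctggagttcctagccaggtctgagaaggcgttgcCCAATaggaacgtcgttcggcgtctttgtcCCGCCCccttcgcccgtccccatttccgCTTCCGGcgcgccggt
Sdha: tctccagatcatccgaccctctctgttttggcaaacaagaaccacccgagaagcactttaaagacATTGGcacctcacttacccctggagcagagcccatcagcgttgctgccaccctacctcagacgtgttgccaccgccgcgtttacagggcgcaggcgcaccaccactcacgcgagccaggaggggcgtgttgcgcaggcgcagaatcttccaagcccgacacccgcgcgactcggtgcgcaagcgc

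The 3 c-subunit promoters held different matches. Atp5g1 had 4 CCAAT boxes on the plus orientation of the gene, at -229, -126, -95 and -69 from the start, and 1 on the other strand that overlaps the third. Atp5g2 had overlapping NRF1 matches on both strands at -42 and -41. Atp5g3 had an ERR match at -52 and a CCAAT box at -72. Cox6a1 combined the NRF1 pair (-162 and -161) with an Ets match at -16, Sp/KLF matches at -139 and -44 and a CCAAT box at -74. Cox7c held none of the motifs in these 250 bases.

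Across the list, 89 members had 95 listed starts, and these were compared with 21262 starts of all protein-coding genes over 300 bases each (250 before and 50 after the start). The NRF1 match occurred at 10.5% of member starts and 2.35% of all starts, the Ets match at 29.5% and 11.6%, the YY1 match at 9.47% and 1.83%, and the ERR match at 2.11% and 0.334%. The ERR share rests on only 2 of 95 member starts, those of Atp5g3 and Sdhd. The Sp/KLF match (48.4% and 46.2%) and the CCAAT box (41.1% and 38.2%) were about as common in both. The NF-kB letters were found at 0 of 95 member starts and at 1.28% of all starts. These shares describe letters, not binding, and were not matched for base composition. The 10 members with an NRF1 match were Atp5g2, Atp5k, Atp5l, Cox6a1, Ndufa8, Ndufa11, Ndufaf4, Ndufaf5, Uqcr11 and Uqcrc1. The 9 with a YY1 match were Atp5j, Atp5j2, Cox10, Ndufa9, Ndufaf8, Ndufc1, Ndufs4, Ndufs6 and Ndufs7.

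**Figure D1:**
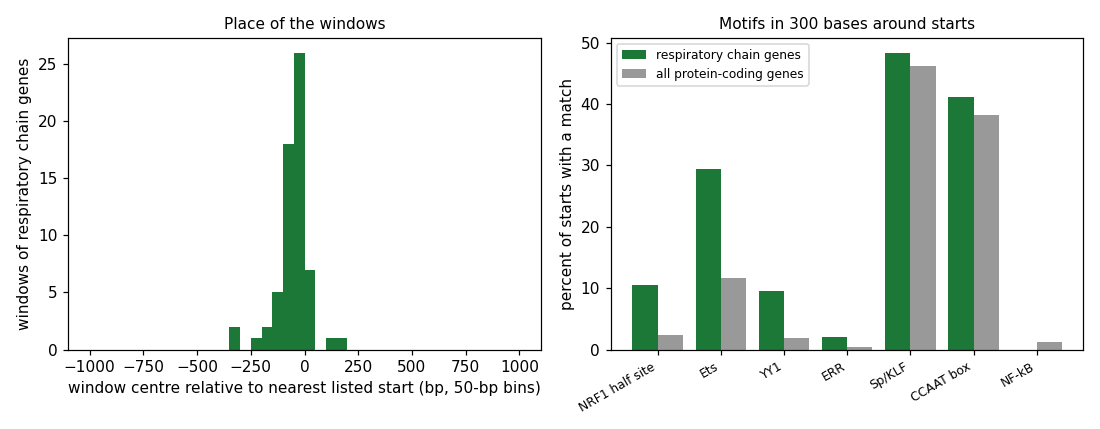
Left, centres of the windows of respiratory chain genes relative to the nearest listed start, in 50-bp bins, for the 63 windows within 1000 bp (12 lie farther away). Right, percent of starts with each motif. The NRF1, Ets, YY1 and ERR bars are taller for the respiratory chain genes (ERR rests on 2 of 95 starts), while Sp/KLF and CCAAT box bars are nearly level.

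Counts were read in 200-bp windows and summed for each gene over the windows whose closest protein-coding gene boundary, at either side of the gene, was its own and lay within 5 kb. Of the 109 members 84 (77.1%) had at least 1 such window, against 59.9% of all protein-coding genes. They had 90 windows, 78 members with 1 and 6 with 2. Of these windows 82.2% lay within 1 kb of the gene end, against 64.4% of all windows assigned in this way. For 75 windows the gene had a listed start, and 61 of them had their centre within 250 bp of it, most often in the 100 bp just before it. A median offset of 58.0 bp separated centre and start. The counts therefore describe mainly promoters.

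Head-to-head gene pairs took the windows of several members. Of the 25 members without a window of their own, 17 had a window within 1 kb of an end that lay closer to a neighbour, 11 of them within 100 bp. The window 60 bp before the start of Sdha, the flavoprotein subunit of complex II, counted for Ccdc127, 17 bp away. That at Atp5c1, the gamma subunit of ATP synthase, counted for Kin, at 3 bp. The window 26 bp before a start of Atp5j (coupling factor 6) counted for Gabpa, which encodes the DNA-binding subunit of GABP. The window at Ndufs6 counted for the mitochondrial ribosomal gene Mrpl36, and that at Ndufa4, a complex IV subunit despite its name, for Phf14. Another 20 of the 90 assigned windows had an end of another protein-coding gene within 1 kb, among them Ndufs1 with Eef1b2, Cox15 with Cutc and Ndufaf7 with Cebpz. At such starts the counts cannot be divided between the 2 genes.

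The other 8 members had no window within 1 kb of a gene end. They include Cox6a2 (nearest window 32236 bp away), Cox7b2 (88494 bp), Cox8c (20824 bp) and Cox6b2 (5493 bp), which are known as muscle or testis forms of complex IV subunits. Ndufb4b and Ndufb4c were also among them. Atp5d, the delta subunit of ATP synthase, had its nearest window 2816 bp from an end, but at an offset of -761 bp from a listed start of the gene. How the windows were chosen is not given in the sources used here, so a missing window does not show a closed promoter.

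Library totals over all 55056 windows ran from 322173 to 976881 counts, and the members' sums held 1261 to 3347 of them. In CPM, the counts of a gene scaled to the library's total of gene sums, 3 counts were worth 6.67 to 19.1 CPM depending on the library. In bulk chromatin, fewer cells with an open site and less opening per cell cannot be told apart. The share of reads in the central 200 bp of each 2-kb region moved with the group: 39.9% to 41.0% in controls and 33.9% to 36.5% with RANKL over all regions. At the members' windows it was 42.7% to 44.0% in controls and 40.8% to 44.0% with RANKL. Its part in the results was not tested, and counts over 2 kb are given beside them.

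Few respiratory chain genes passed the test between RANKL and control organoids. Of 76 members deep enough to test, 2 were higher with RANKL, Atp5g2 and Atp5g1, 2 were lower, Cox7c and Cox18, and 72 were not called (edgeR quasi-likelihood test, Benjamini-Hochberg adjusted p at or under 0.05 over all 10042 genes tested, n = 3 per group). These 4 of 76 are 5.26%, against 8.78% of all genes tested (384 higher and 498 lower). An unadjusted p under 0.05 was found for 12 members (15.8%) and for 23.5% of all genes. The 3 RANKL libraries lay wholly above or below the 3 controls for 14 members (18.4%), 10 above and 4 below, against 25.9% of all genes. DESeq2, which fitted 84 members and 13110 genes, called 1 member, Atp5g2. Over all genes it called 134 higher and 113 lower, also fewer than edgeR.

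The members' log2 fold changes ran from -0.77 to 0.91, with a median of 0.03 and quartiles of -0.16 and 0.40. The median was 0.15 without control replicate 1, 0.09 without RANKL replicate 3 and 0.06 without control replicate 2 or control replicate 3, while that of all genes was 0.007, 0.008, 0.009 and 0.013. Over all genes tested the range was -4.02 to 7.35, with a median of 0.01 and quartiles of -0.30 and 0.31. For 50 of the 76 members the 95% interval lay inside a 2-fold change in either direction, and for 14 inside a 1.5-fold change. For the other 26 the counts do not limit the change that far. A missing call is therefore not a measurement of no change.

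The scale decides how the balance reads. Windows near gene ends held 46.6% to 49.2% of all counts in controls and 49.4% to 51.4% with RANKL. When the gene sums were scaled to the totals of all windows, a setting chosen after seeing the data, the median over all genes went from 0.01 to 0.13 and that of the members from 0.03 to 0.15. All genes then had 730 higher and 331 lower calls. Among the members Atp5g1, Atp5g2, Cox14, Cox6a1 and Uqcrq were called higher, and none lower, with Cox7c at -0.39 (adjusted p = 0.1192) and Cox18 at -0.42 (adjusted p = 0.1386). Values below are on the scale of the gene sums unless another is named.

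**Figure D2:**
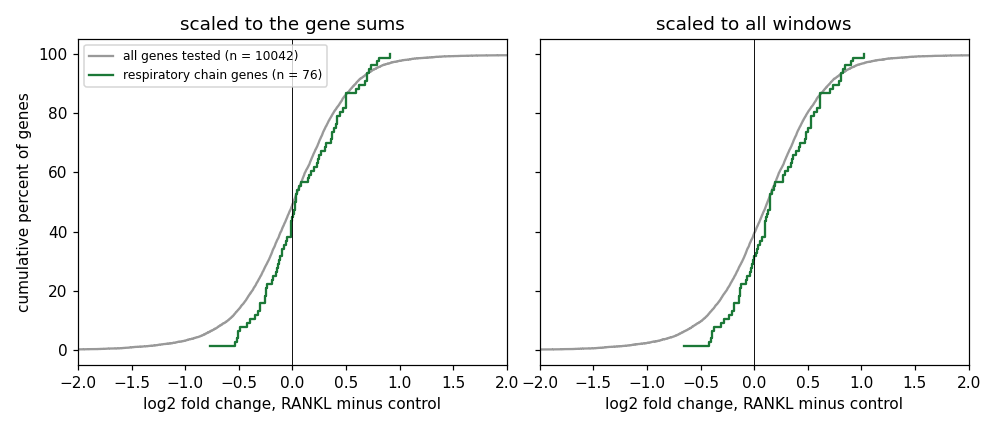
Cumulative percent of genes (vertical axis) by log2 fold change, RANKL minus control (horizontal axis), for 76 respiratory chain genes and all 10042 genes tested, on the scale of the gene sums (left) and of all windows (right). The median moves from 0.03 to 0.15 for the members and from 0.01 to 0.13 for all genes between the panels.

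**Figure D3:**
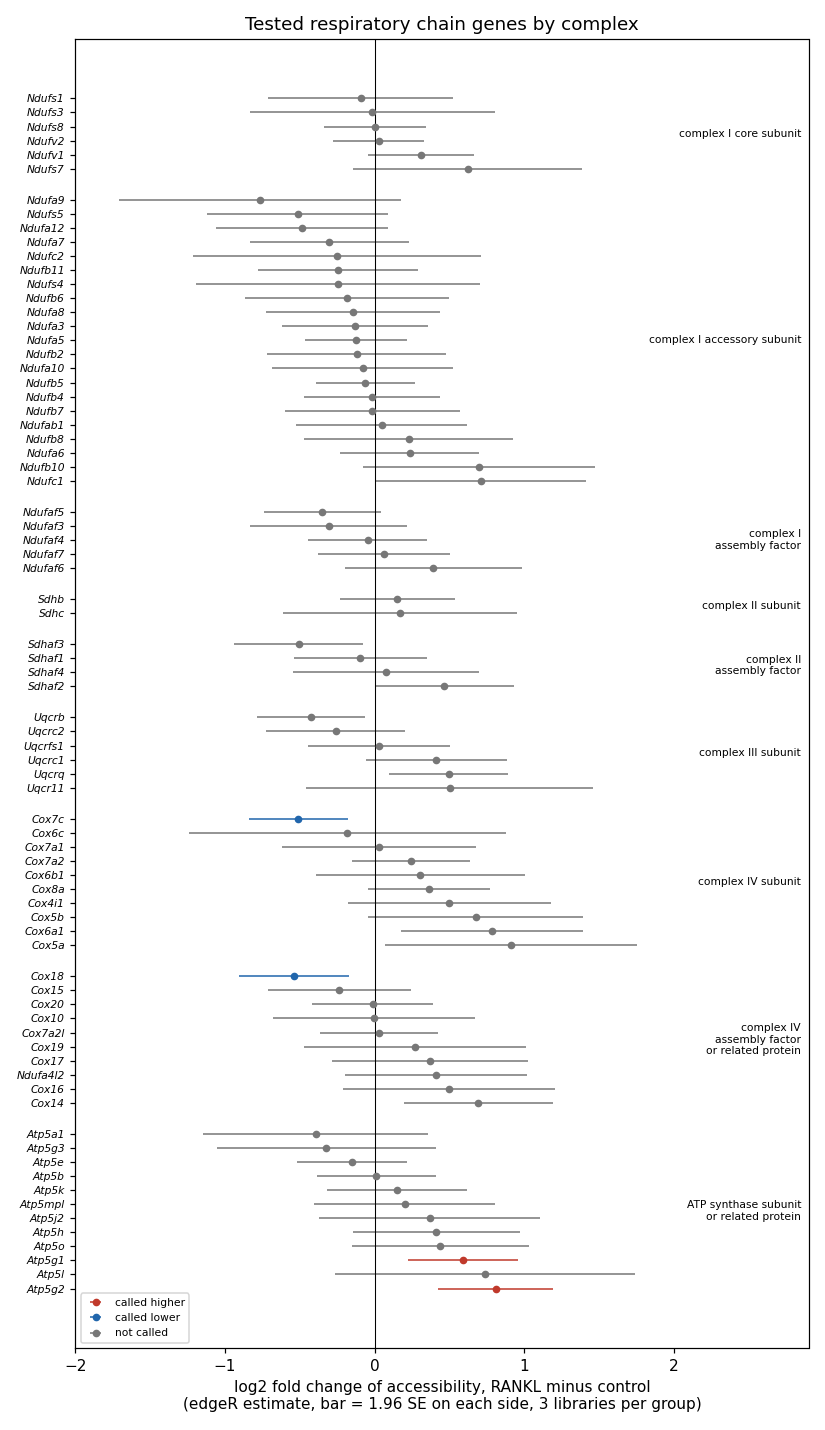
Log2 fold change, RANKL minus control, of the 76 tested members grouped by complex and role; points are edgeR estimates and bars 95% intervals (3 libraries per group). The 2 members called higher are ATP synthase genes and the 2 called lower are complex IV genes, and most bars cross 0.

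Complex I, the NADH dehydrogenase, had no edgeR call in either direction among its 32 tested genes, against 8.78% of all genes called. Of the 32, 1 gene, Ndufc1, had an unadjusted p under 0.05, against 23.5% of all genes. The 6 tested core subunits, which carry the flavin and iron-sulfur centres, had a median log2 fold change of 0.02. Ndufs1, the largest core subunit, had 96.4, 64.4 and 52.1 CPM in control replicates 1, 2 and 3 and 89.2, 41.1 and 76.6 CPM with RANKL, overlapping groups with a log2 fold change of -0.09 ± 0.31 (SE, adjusted p = 0.8954). Ndufv1, which binds NADH, had 156, 164 and 156 CPM in controls and 146.5, 251 and 189 CPM with RANKL, a log2 fold change of 0.31 ± 0.18 (SE, adjusted p = 0.2949). Ndufv2, an iron-sulfur subunit, had among the highest sums of all members, over 2 windows: 247, 275.5 and 269.8 CPM in controls and 331, 182.5 and 294 CPM with RANKL. Of the 2 windows, 1 lay 1707 bp outside the gene and 24471 bp from the listed start, with 39, 60 and 18 counts in controls. The log2 fold change of the Ndufv2 sum was 0.03 ± 0.16 (SE), and the RANKL libraries lay on both sides of the controls.

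The 21 tested accessory subunits of complex I had a median of -0.13, against 0.01 for all genes. A negative estimate was found for 16 of them, none of which was called, and for 4944 of all 10042 genes tested. On the scale of all windows the medians were -0.01 and 0.13, so both moved up and the accessory subunits stayed below all genes. This difference was not tested. Ndufb5, with a single well-covered window, had 262, 195.5 and 189 CPM in controls and 172, 251 and 202 CPM with RANKL, a log2 fold change of -0.06 ± 0.17 (SE). Ndufa9, which holds NADPH at the junction of the 2 arms, had the smallest estimate of the list, -0.77 ± 0.48 (SE, adjusted p = 0.3385). It rested on 17.3, 66.7 and 56.8 CPM in controls and 0, 45.6 and 28.1 CPM with RANKL, and the groups overlapped. Ndufs5 had -0.52 ± 0.31 (SE, adjusted p = 0.3153). Ndufc1 had all RANKL libraries (68.4 to 74.0 CPM) above all controls (23.7 to 56.8 CPM) and Ndufa12 all RANKL libraries (57.3 to 73.0 CPM) below all controls (75.7 to 102 CPM), and neither was called (adjusted p = 0.2041 and 0.3167). Of the 5 tested assembly factors none was called either, with estimates from -0.35 (Ndufaf5) to 0.39 (Ndufaf6).

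Complex II, succinate dehydrogenase, is the enzyme shared with the tricarboxylic acid cycle. Sdhb, its iron-sulfur subunit, had 161, 144 and 109 CPM in controls and 153, 150.5 and 166 CPM with RANKL over 2 windows, a log2 fold change of 0.15 ± 0.20 (SE, adjusted p = 0.6899). The shared Sdha and Ccdc127 window held 74.5, 47.4 and 56.6 CPM in controls and 73.2, 66.4 and 62.3 CPM with RANKL on the scale of all windows, with 0.14 ± 0.24 (SE, adjusted p = 0.7351). Groups overlapped at both. Among the assembly factors Sdhaf3, which aids maturation of the iron-sulfur subunit, had 119, 153 and 170.4 CPM in controls and 95.6, 95.8 and 107 CPM with RANKL. Each RANKL library was below each control, with a log2 fold change of -0.51 ± 0.22 (SE), and the test was not passed (adjusted p = 0.1305). It was called lower with windows up to 50 kb away (-0.72, edgeR adjusted p = 0.00165) and in 2-kb counts (-0.64, 0.002969).

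Complex III, the cytochrome bc1 complex, had 6 tested subunits and no call, against 8.78% of all genes called. Uqcrfs1, the Rieske iron-sulfur protein, had a log2 fold change of 0.03 ± 0.24 and the core protein gene Uqcrc1 of 0.41 ± 0.24 (SE). Uqcrq, a small subunit, had 126, 109 and 118 CPM in controls and 178, 155 and 166 CPM with RANKL. All 3 RANKL libraries were higher, by a log2 fold change of 0.49 ± 0.20 (SE, adjusted p = 0.1062). Its window lies 200 bp outside the gene and 257 bp from an end of Gdf9. Uqcrb had the opposite sign, -0.43 ± 0.19 (SE, adjusted p = 0.1316), with overlapping groups.

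Uqcrh, the hinge protein of complex III, did not pass the filter on low counts. Its window, chr4:116066836-116067035, held 2, 9 and 1 counts in control replicates 1, 2 and 3 and 5, 11 and 20 with RANKL. As a single window it passed the filter only through the RANKL group, where it is high, and the edgeR estimate there (2.13 ± 0.58 on the log2 scale, SE, adjusted p = 0.002597) is given as a description. This window sat 30 bp outside the gene and 8135 bp from the listed start, so it marks the far end of the gene and not its promoter. The fold rests on 1 to 9 control counts.

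Complex IV, cytochrome c oxidase, had 1 lower call among its 10 tested subunits (10.0%, against 8.78% of all genes called). A positive estimate was found for 8 of the 10 (median 0.33) and for 50.8% of all genes. Cox7c, a small membrane subunit at chr13:86044798-86046795, had the highest value of the list for a single window: 255, 238 and 317 CPM in control replicates 1, 2 and 3 and 191, 182.5 and 181 CPM with RANKL. All RANKL libraries were lower, and the gene fell by 0.51 ± 0.17 on the log2 scale (SE, edgeR adjusted p = 0.03392). The call ended with a replicate block (edgeR adjusted p = 0.05399), with DESeq2 (0.1948), with loess offsets (0.05854), with windows up to 50 kb away (-0.25, 0.245) and without control replicate 1 (0.07541), control replicate 3 (0.1444), RANKL replicate 2 (0.1057) or RANKL replicate 3 (0.1416). In 2-kb counts it was -0.62 (adjusted p = 0.0009962).

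Cox5a, a subunit of the matrix side, had the largest estimate of the list, 0.91 ± 0.43 (SE, adjusted p = 0.172). It had 27.2, 37.8 and 23.7 CPM in controls and 76.5, 45.6 and 56.2 CPM with RANKL, with no overlap between groups, and over 2 kb it was called at 0.92 (adjusted p = 0.01042). With 11, 17 and 5 counts in control replicates 1, 2 and 3, Cox5a passed the filter on low counts only with the help of its RANKL libraries, where it is high. Its estimate in the gene sums is therefore given as a description. Cox6a1, whose promoter with NRF1 and Ets matches is shown above, had 56.8, 42.2 and 75.7 CPM in controls and 82.8, 95.8 and 102 CPM with RANKL. The RANKL libraries lay above all controls, with 0.79 ± 0.31 (SE, adjusted p = 0.08879). Of the members with an NRF1 match, Atp5g2 alone was called in the gene sums. Estimates of those tested ran from -0.35 (Ndufaf5) to 0.81 (Atp5g2). A link between motifs and changes in accessibility was not tested. Cox4i1, the largest nuclear-encoded subunit, had 0.50 ± 0.35 (SE, adjusted p = 0.4021), and its start lies near those of Emc8 and Gm27021. RANKL libraries were also all above controls at Cox5b, which was not called (adjusted p = 0.2559).

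Several complex IV subunits have a second gene for other tissues, and the data covered them unevenly. The liver-type form Cox7a2, the usual one in epithelium, had 119 to 170.4 CPM in controls and 115 to 171 CPM with RANKL, against 42.6 to 89.0 and 40.9 to 109.5 CPM for the heart and muscle form Cox7a1. Their log2 fold changes were 0.24 ± 0.20 and 0.03 ± 0.33 (SE), and the groups overlapped at both. The form Cox4i2, known for its high level in lung, had 7 to 18 counts in control replicates 1 and 2 and was too shallow to test, as was Cox8b, a muscle and brown fat form with 0 counts in control replicate 3 and RANKL replicate 3. Cox6b1 had 0.31 ± 0.36 (SE), and for Cox6b2 no window was assigned. Ndufa4l2, a paralog of Ndufa4 known to be induced in hypoxia, had 0.41 ± 0.31 (SE, adjusted p = 0.4488). The Ndufa4 window assigned to Phf14 had all RANKL libraries (69.3 to 93.4 CPM) below all controls (105 to 125 CPM, scale of all windows) and was not called (adjusted p = 0.1528).

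Among assembly factors and related proteins of complex IV 1 of 10 was called (10.0%, against 8.78% of all genes called). Cox18, which helps insert the C-terminal tail of the COX2 subunit into the membrane (chr5:90214724-90224595), had 190.3, 209 and 203.5 CPM in controls and 121, 159.7 and 133 CPM with RANKL, with a single window 487 bp inside the gene. All RANKL libraries were lower, and the gene fell by 0.54 ± 0.19 on the log2 scale (SE, edgeR adjusted p = 0.04891). This call sat at the threshold and was made in 4 of 16 other settings. It ended without each of the 6 libraries in turn (adjusted p from 0.05929 to 0.2172), with a replicate block (0.08243) and with DESeq2 (0.2592). Median-ratio size factors, loess offsets on 200-bp counts, no filter on low counts and the scale of all windows also ended it. It was made with windows within 1 kb (edgeR adjusted p = 0.04024) or 50 kb (0.01467) and in 2-kb counts without (0.005738) or with loess offsets (0.04013). Cox14, a factor that holds newly made COX1, had 79.1, 73.3 and 80.5 CPM in controls and 127.4, 119 and 128 CPM with RANKL. Every RANKL library lay above every control, with 0.69 ± 0.25 (log2 fold change, SE), and the test was just missed (adjusted p = 0.0629). Cox10, which makes heme O, and Cox20 were at -0.0041 and -0.01 (log2 fold change), and Cox15, which makes heme A, at -0.24.

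ATP synthase had 12 tested genes, 2 of them called higher (16.7%, against 8.78% of all genes called) and 9 with a positive estimate (median 0.28), as had 50.8% of all genes. Summed over its genes with windows, accessibility was 1137, 1073 and 918 CPM in control replicates 1, 2 and 3 and 1510, 1218 and 1223 CPM with RANKL. The groups did not overlap in this sum. Without Atp5g1 and Atp5g2 it was 845, 835 and 743 CPM in controls and 1026, 826 and 866 CPM with RANKL, and the groups overlapped. The sum over all members, ATP synthase included, also lay apart (7327 to 7590 CPM in controls, 7645 to 8035 CPM with RANKL). So did that of the glycolysis genes named below (1493 to 1702 and 1937 to 1966 CPM). Complex I accessory subunits lay just the other way (1765.4 to 1920.3 and 1714.0 to 1764.2 CPM). Differences in these sums were not tested. The beta subunit gene Atp5b, the catalytic subunit, had 156, 140.0 and 123 CPM in controls and 159, 132 and 143 CPM with RANKL, a log2 fold change of 0.01 ± 0.20 (SE, adjusted p = 0.9812). The alpha subunit gene Atp5a1 had -0.39 ± 0.38 (SE, adjusted p = 0.5705). Atp5l, a membrane subunit, had all RANKL libraries above all controls from low counts and was not called (0.74 ± 0.51, SE, adjusted p = 0.4026). With 11, 8 and 7 control counts, Atp5l passed the filter on low counts only with the help of its RANKL libraries.

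The calls among ATP synthase genes fell on the c subunit, which forms the proton-driven rotor ring. Its 3 genes are known to encode the same mature protein with different mitochondrial targeting sequences. Atp5g2 (chr15:102662868-102671047) had 131, 113 and 75.7 CPM in control replicates 1, 2 and 3 and 223, 196 and 184 CPM with RANKL. All RANKL libraries were higher, and the gene rose by 0.81 ± 0.20 on the log2 scale (SE, edgeR adjusted p = 0.00187), from 107 ± 28 to 201 ± 20 CPM (SD, n = 3 per group). The call was made in 16 of 17 other settings, among them the absence of each library in turn, and ended with windows up to 50 kb away (0.38, adjusted p = 0.1516).

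Atp5g1 (chr11:96072793-96075694) had 161, 124 and 99.4 CPM in controls and 261, 196 and 174 CPM with RANKL. All RANKL libraries were higher, and the gene rose by 0.59 ± 0.19 (log2 fold change, SE, edgeR adjusted p = 0.02611). Its call ended with DESeq2 (adjusted p = 0.1565) and without control replicate 2 (0.1302), control replicate 3 (0.1032), RANKL replicate 1 (0.1565) or RANKL replicate 2 (0.0632). Atp5g3, the third gene (chosen after its value was seen), had 34.6, 84.4 and 52.1 CPM in controls and 44.6, 41.1 and 51.1 CPM with RANKL. Its groups overlapped, and its log2 fold change was -0.32 ± 0.37 (SE, adjusted p = 0.6443), with an interval of -1.06 to 0.41. The intervals were 0.22 to 0.96 for Atp5g1 and 0.42 to 1.19 for Atp5g2, and the difference between the 3 genes was not tested.

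**Figure D4:**
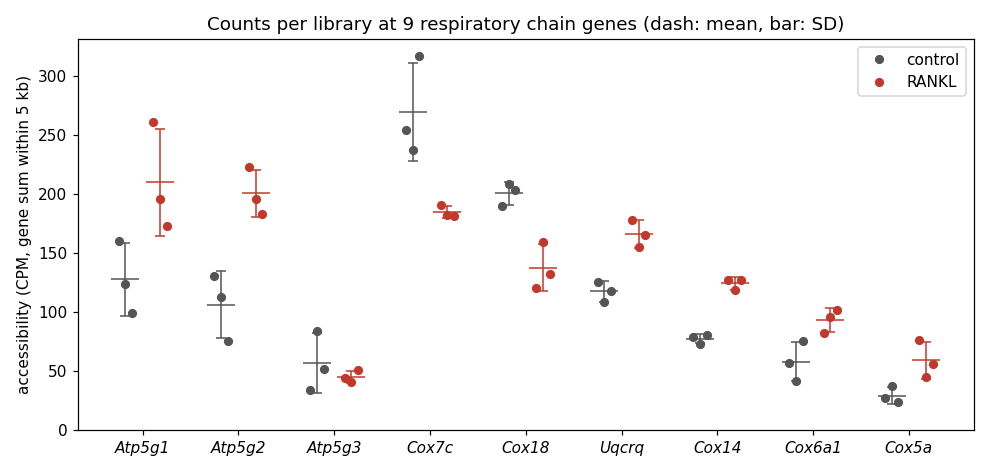
Accessibility per library (vertical axis, CPM of the gene sum within 5 kb) at 9 respiratory chain genes, with control in grey and RANKL in red; dashes are means and bars SD (n = 3 per group). RANKL points lie above all control points at Atp5g1, Atp5g2, Uqcrq, Cox14, Cox6a1 and Cox5a, below them at Cox7c and Cox18, and among them at Atp5g3.

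Tested as single 200-bp windows, on the scale of all windows, 6 of 78 member windows were higher (7.69%) and none lower. Of the 10540 tested windows within 5 kb of any gene end, 976 were higher and 421 lower (13.3% in all), and of all windows 20.1% were called. The edgeR test called those of Atp5g1, Atp5g2, Cox14, Cox6a1, Uqcrq and Uqcrh, the last of which passed the filter on low counts only through its RANKL libraries. DESeq2 called 3 member windows higher and 0 lower, and over all windows 2195 higher and 950 lower. The window at the Atp5g2 start, chr15:102671006-102671205, had its centre 58 bp before the start, over the overlapping NRF1 matches printed above, and rose by 0.92 ± 0.22 (log2 fold change, SE, edgeR adjusted p = 0.000449). It held 61.6, 55.3 and 39.6 CPM in controls and 134, 109.7 and 83.6 CPM with RANKL. The Atp5g1 window, chr11:96075712-96075911, centred 180 bp before the listed start, rose by 0.71 ± 0.19 (SE, adjusted p = 0.002071). The Cox14 window rose by 0.81 ± 0.25 (SE, adjusted p = 0.009725), that of Cox6a1 by 0.91 ± 0.30 (SE, adjusted p = 0.0193) and that of Uqcrq by 0.61 ± 0.20 (SE, adjusted p = 0.018). The median over member windows was 0.15, and over all tested windows within 5 kb of a gene end 0.13, against 0.01 over all windows. Of the 16 neighbour-held windows within 1 kb of a member that could be tested, none was called by edgeR (3 had an unadjusted p under 0.05), with estimates from -0.52 (Atp5pb, shared with Wdr77) to 0.68 (Ndufv3, shared with Wdr4, adjusted p = 0.05499).

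Counts over 2 kb around the same centres gave more calls in both directions. Of 84 members tested, 10 (11.9%) were called, 4 higher and 6 lower, against 16.3% of all genes. Atp5g1, Atp5g2, Cox5a and Uqcrh were higher, and Cox7c, Cox18, Ndufa5, Ndufaf5, Sdhaf3 and Uqcrb were lower. Cox14 (0.22, adjusted p = 0.448), Cox6a1 (0.30, adjusted p = 0.4147) and Uqcrq (0.15, adjusted p = 0.5148) had smaller estimates over 2 kb than in the central 200 bp. The 4 members called in the gene sums of 200-bp windows were called in the same direction over 2 kb.

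Genes that work with the respiratory chain were read from the same fit. Of 31 tested electron carriers and assembly factors with other symbols, 2 were higher and 2 lower (12.9%, beside the 8.78% of all genes), with a median log2 fold change of 0.03. Foxred1, a complex I assembly factor, rose by 0.72 ± 0.21 (SE, edgeR adjusted p = 0.01337). The 2 genes for the enzyme that makes the side chain of ubiquinone moved apart, with Pdss1 at -0.65 ± 0.21 (adjusted p = 0.02746) and Pdss2, chosen after its value was seen, at 0.75 ± 0.26 (adjusted p = 0.0432). Etfb, also chosen afterwards, was the other lower gene. The calls of Foxred1 and Pdss1 ended with DESeq2 (adjusted p = 0.1427 and 0.1842), that of Foxred1 also without control replicate 1, RANKL replicate 2 or RANKL replicate 3 and that of Pdss1 on the scale of all windows (0.07928) and without any 1 of 5 libraries (all but RANKL replicate 3).

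Of 17 tested regulators of mitochondrial biogenesis and mitochondrial DNA expression, 1 was lower and none higher (5.88% called, against 8.78% of all genes). It was Ppargc1a, which encodes the coactivator PGC-1alpha, a partner of NRF1 and ERR proteins, and it went from 89.3 to 37.6 CPM on average with all RANKL libraries below all controls. Its log2 fold change was -1.24 ± 0.35 (SE, edgeR adjusted p = 0.01153). The call ended with DESeq2 (adjusted p = 0.1008), without RANKL replicate 3 (0.1344) and with windows up to 50 kb away (-0.66, 0.05774).

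Of 17 genes of the tricarboxylic acid cycle and pyruvate dehydrogenase 1 was lower (5.88%, against 8.78% of all genes called), Pdha1, the E1 alpha subunit (-0.67 ± 0.22, SE, edgeR adjusted p = 0.03682). Its call ended with a replicate block (0.05344), with DESeq2 (0.2349) and without any 1 library other than control replicate 3. Of 15 glycolysis genes 2 were higher and none lower (13.3%, against 8.78%), the lactate transporter gene Slc16a1 (0.68 ± 0.21) and the aldolase gene Aldoa (0.80 ± 0.25, log2 fold change, SE). The Slc16a1 call ended with a replicate block (edgeR adjusted p = 0.05868), with windows within 1 kb (0.05924) or 50 kb (0.18, 0.4777), in 2-kb counts (0.24, 0.3426) and without control replicate 1, control replicate 3, RANKL replicate 2 or RANKL replicate 3 (0.05414 to 0.2627). The Aldoa call ended without control replicate 1, control replicate 3, RANKL replicate 1 or RANKL replicate 3 (edgeR adjusted p from 0.07059 to 0.142), and both calls ended with DESeq2 (0.1972 and 0.1515). Of 53 mitochondrial ribosomal protein genes 2 were higher and 1 lower (5.66%, against 8.78%), with a median of 0.01. Mrpl45 rose by 1.11 ± 0.29 and Mrpl15 fell by 0.57 ± 0.17 on the log2 scale (SE). Both calls ended with DESeq2 (adjusted p = 0.05509 and 0.1635), that of Mrpl45 also without control replicate 1 (0.05587) or RANKL replicate 3 (0.07083). That of Mrpl15 also ended with windows within 1 kb (-0.31, edgeR adjusted p = 0.5521), on the scale of all windows (0.07194) and without control replicate 3, RANKL replicate 2 or RANKL replicate 3 (0.07175 to 0.1876).

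The markers of intestinal epithelium were open in both groups, with 12 of 12 genes having counts, a summed level of 1526 to 1633 CPM in controls and 1374 to 1752 CPM with RANKL, and none of 11 tested called by edgeR. The M cell list had 3 of 7 tested members higher (42.9%, against 8.78% of all genes called): H2-M2, Msln and Marcksl1 (the last named outside the rule). Its summed level was 450 to 499 CPM in controls and 878 to 967 CPM with RANKL, while Gp2 had no counts. Groups overlapped at Marcksl1, where control replicate 3 (52.1 CPM) lay above RANKL replicates 1 and 3 (44.6 and 48.5 CPM). H2-M2 (0 to 4 counts in controls), Msln (2 to 7) and Marcksl1 (3 to 11) passed the filter on low counts through the RANKL libraries. Summed levels of the haematopoietic list were 33.3 to 85.2 CPM in controls and 38.2 to 128 CPM with RANKL, with 8 of 12 genes at no counts, Ptprc among them. The endothelial list had 40.0 to 76.6 and 44.6 to 63.9 CPM with 5 of 8 genes at no counts, and the neural list 98.9 to 111 and 82.8 to 102 CPM with 5 of 8 at no counts. Of 10 mesenchymal genes, which had 151 to 200 CPM in controls and 178 to 209 CPM with RANKL, Pdgfra and Dcn had no counts and Pdgfrb was higher (log2 fold change 3.03 ± 0.63, SE, edgeR adjusted p = 0.0001487). Pdgfrb had 4, 3 and 0 control counts and passed the filter on low counts only through the RANKL libraries. Vim (27.2 to 42.6 CPM in controls, 0 to 17.9 CPM with RANKL) and Myh11 (24.4 to 47.3 and 6.37 to 18.2 CPM) had all RANKL libraries below all controls and were too shallow to test. The part of a change in cell types in the values above was not tested.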

How the data were processed

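ATAC-seq libraries of 50000 cells were sequenced at 38 bp, per the labels' protocols. The deposited tables hold raw counts for 55056 windows, each 200 bp long, and a standardised score per library for 55050 windows of 2 kb. Per the submitters' processing notes, the tools were DESeq2 1.34.0, MACS2 2.2.7, Picard, BWA 0.7.17 and fastp 0.20.1, on build mm10 (GRCm38). How windows were chosen, duplicates treated, reads shifted for Tn5 and counts made is not given in the sources used here. The scores were turned back into whole counts from their spacing (largest distance from a whole number 0.0074).

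Counts were summed per gene over windows within 5 kb of its nearest end, and the sums were tested in R 4.3.3 by edgeR 4.0.16 (filterByExpr, TMM, robust quasi-likelihood fit, Benjamini-Hochberg adjustment), 3 RANKL against 3 control libraries. SE is the log2 fold change over the root of F, and the script was tested on simulated data. DESeq2 1.42.0, other scalings, filters, distances, 2-kb counts, a replicate block and each library left out were alternatives. The labels give both groups the experiment numbers 1 to 3; deviations of same-numbered libraries from their group means correlated at -0.05, 0.003 and -0.025. Named genes were those called, the 3 largest and 3 smallest estimates, fixed core subunits and isoform pairs, the 3 highest levels and up to 2 called genes of each list; others are marked or belong to a described count. Members and lists were chosen with earlier results of these data known. The floor of 3 counts covers counting error only, and no molecular identifiers are named in the labels.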

Additional observations from a re-analysis of the deposited data

How the results depend on the processing

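Calls depended on the unit counted and on the tool, and the cause was not tested. The number fitted changed too: 10042 genes and 76 members in the main fit, 13110 and 84 with DESeq2 or no filter. It was 8108 and 70 within 1 kb, 12463 and 81 within 50 kb, 8086 and 69 near a transcription start, and 12805 and 84 in 2-kb counts. Numbers of calls in these settings therefore do not rest on the same genes. With DESeq2, 134 genes were higher and 113 lower, and 1 member was higher and 0 lower. Of windows, 2195 were higher and 950 lower, and 3 member windows were higher and 0 lower. Scaled to all windows, 730 genes were higher and 331 lower, 5 members higher and 0 lower, and the members' median was 0.146. With windows within 1 kb, 219 genes were higher and 300 lower, with 2 members higher and 2 lower. Within 50 kb these were 875 and 1035 genes and 2 and 3 members: Atp5g1 and Cox14 (0.738, adjusted p = 0.04172) higher, and Cox18, Sdhaf3 (-0.72, 0.00165) and Ndufs4 (-0.856, 0.02403) lower by edgeR. In 2-kb counts 805 genes were higher and 1280 lower, 4 members higher and 6 lower, 4181 windows higher and 5076 lower, and 2 member windows higher and 9 lower. With loess offsets on 2-kb counts these were 888 and 967 genes, 6 and 4 members, 3746 and 3126 windows, and 10 and 2 member windows. Lower members numbered 1 with median-ratio size factors, with no filter and with windows near a transcription start. Of all genes, 490, 500 and 374 were lower in these settings. With loess offsets on 200-bp counts 0 members were lower, beside 484 of all genes. There 2 member windows were lower, beside 2273 of all windows. With the replicate block, 299 genes were higher and 423 lower, and 2 members were higher and 0 lower. There 6 member windows were higher and 0 lower, beside 1807 and 1827 of all windows.

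With 1 library fewer, 9292 to 11164 genes and 71 to 79 members were fitted. Leaving out each library in turn gave 182 to 385 genes higher and 265 to 442 lower, 1 to 3 members higher and 0 to 1 lower. It gave 1337 to 2802 windows higher and 1475 to 2229 lower, 2 to 7 member windows higher and 0 lower, and a members' median of 0.029 to 0.147. The sign turned, with no call, for Cox7a1 without RANKL replicate 2 (range over libraries left out -0.438 to 0.442), Ndufb5 without control replicate 1 (-0.186 to 0.114) and Ndufv2 in 2-kb counts (-0.152). Depth limits the list: 8 members with a window were too shallow to test, and 26 of 76 had an interval reaching beyond a 2-fold change.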
